A study of Rattus norvegicus and Mus musculus with 17 samples.

Results

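Interferon response and antigen processing genes were described here in 2 rodent liver tumour models and in regenerating liver. The set holds 39 named genes, matched to the deposited tables by gene symbol without regard to case. Of these, 17 were listed in at least 1 of the 3 tables, which together list 11532 gene symbols. The DEN (diethylnitrosamine) table listed 9 of the 39 among 4649 genes, that of Morris hepatoma 8 among 9082, and that of regenerating liver 6 among 2093. None was in all 3 tables. Irf1, Isg20, Ifitm2 and Tap2 were in both rat tables, Ifitm1 was in the DEN and Morris hepatoma tables, and Ifi35 was in the DEN and regenerating tables.

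Interferons are cytokines that bind receptors on the cell surface and signal through Janus kinases (JAKs) to STAT transcription factors. Type I interferons act mainly through a complex that includes Stat2 and Irf9 and binds the interferon-stimulated response element (ISRE), and interferon gamma acts through the gamma-activated site (GAS). The genes switched on include viral RNA sensors, antiviral enzymes and membrane proteins, guanylate-binding and other GTPases, and the proteins that cut, transport and load peptides onto major histocompatibility complex (MHC) molecules, and in liver they are induced in hepatocytes as well as in Kupffer cells and other immune cells.

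The study set chemically induced and transplanted liver tumours beside liver that regrows after surgery, with 17 libraries of total RNA in 5 groups. In the mouse model, male C57BL/6 animals were given 50 mg/kg DEN, a liver carcinogen, at 14 days of age and 2 mg/kg TCPOBOP, a tumour promoter that activates the nuclear receptor CAR, 30 days later. Both mouse groups had received both agents. One group was sampled at the age of 5 months, when no tumours had formed (n = 3), and the other at 8 months, when tumours were present (n = 3), so that age and tumour cannot be told apart. In the rat model, male ACI animals aged 10 weeks had MH3924a cells, a single transplantable Morris hepatoma line, placed in the liver and were sampled 2 weeks later (n = 4). Regenerating liver came from male ACI rats aged 10 to 12 weeks, 24 hours after partial hepatectomy (n = 4). Untreated ACI liver (n = 3) was the control of both rat comparisons, which therefore share these libraries. The labels do not name the animal behind each library, and p-values here measure the spread between libraries, which may be technical.

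Each table gives a value per library, read as RPKM (reads scaled to transcript length and to the size of the library), and lists only genes whose p-value in the authors' deposited table is under 0.05. A listed gene was therefore already selected for a difference in that comparison, and counts among listed genes are not independent support for a direction. The other 22 members were in no table, and their levels were not analysed here. They are the transcription factors Irf7 and Irf8, the RNA sensors Ddx58 and Dhx58, the ubiquitin-like modifier Isg15 and its protease Usp18, the antiviral genes Ifit1, Ifit3, Mx1, Oas1a, Oas2, Oasl, Oasl2 and Rsad2, the membrane protein gene Ifitm3, the interferon-inducible genes Ifi27 and Ifi44, the GTPase genes Gbp2, Igtp and Irgm, and the antigen presentation genes B2m and Tapbp. Relative library depth ran from 0.94 to 1.21 times that of the first library before tumours in mice, and from 1.0 to 1.18 times that of control library 1 in rats.

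Listing itself ran in 1 direction in each table. Of the 36 members annotated as protein-coding in mouse, 8 (22.2%) were listed as lower with tumours in the authors' deposited table and none as higher, against 14.2% of all 21951 annotated genes listed as lower and 5.93% as higher. Mx2 was also listed as lower but is not among those 36. For Morris hepatoma, 8 of 38 annotated members (21.1%) were listed as higher, below the 34.2% of all 23154 annotated rat genes listed as higher in the authors' deposited table, where 4.74% were listed as lower and no member was. In regenerating liver 6 of 38 (15.8%) were listed as higher in the authors' deposited table, against 8.48% of all annotated genes listed as higher and 0.544% as lower.

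Promoters of the 4 members with values in all 3 rat groups are shown because these genes allow the hepatoma and regenerating liver to be set side by side. The sequences are those of RefSeq on the rat build GRCr8, from 250 bases before to 50 bases after the annotated start, written 5′ to 3′ along the gene, and capitals mark the match to a motif. Irf1 lies on the plus strand at chr10:38417685-38417984 and holds a GAS match. Isg20, on the plus strand at chr1:142239809-142240108, Ifitm2, on the minus strand at chr1:205482299-205482598, and Tap2, on the minus strand at chr20:4652247-4652546, each hold an ISRE match.
Irf1: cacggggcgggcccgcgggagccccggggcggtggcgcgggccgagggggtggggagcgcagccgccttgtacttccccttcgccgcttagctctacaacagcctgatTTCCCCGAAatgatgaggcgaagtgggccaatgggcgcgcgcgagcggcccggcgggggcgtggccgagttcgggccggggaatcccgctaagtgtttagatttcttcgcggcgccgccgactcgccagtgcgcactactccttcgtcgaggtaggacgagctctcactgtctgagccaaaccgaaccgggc
Isg20: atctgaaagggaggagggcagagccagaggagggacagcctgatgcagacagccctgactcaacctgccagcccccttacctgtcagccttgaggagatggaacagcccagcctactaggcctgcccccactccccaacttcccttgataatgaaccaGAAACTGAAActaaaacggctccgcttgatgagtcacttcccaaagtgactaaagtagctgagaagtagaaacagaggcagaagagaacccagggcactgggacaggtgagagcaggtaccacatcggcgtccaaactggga
Ifitm2: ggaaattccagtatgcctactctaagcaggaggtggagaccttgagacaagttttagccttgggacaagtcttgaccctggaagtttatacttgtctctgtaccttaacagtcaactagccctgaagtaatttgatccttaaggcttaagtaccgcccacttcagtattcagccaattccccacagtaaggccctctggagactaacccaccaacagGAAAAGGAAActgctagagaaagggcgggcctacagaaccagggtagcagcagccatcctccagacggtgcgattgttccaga
Tap2: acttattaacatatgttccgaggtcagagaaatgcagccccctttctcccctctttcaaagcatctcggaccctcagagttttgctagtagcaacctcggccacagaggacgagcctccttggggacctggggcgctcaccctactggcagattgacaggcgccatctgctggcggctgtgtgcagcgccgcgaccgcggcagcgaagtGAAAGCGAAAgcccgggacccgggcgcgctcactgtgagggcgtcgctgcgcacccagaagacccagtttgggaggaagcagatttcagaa

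The motifs searched were the ISRE core, which is GAAA, any 2 bases and GAAA again, and the GAS core TTCNNNGAA, each on both strands, the GAS core being its own reverse complement. The first base of the match lay at -142 from the start in Irf1 (TTCCCCGAA), at -92 in Isg20 (GAAACTGAAA), at -33 in Ifitm2 (GAAAAGGAAA) and at -41 in Tap2 (GAAAGCGAAA). Of all 33469 rat promoters, 3.92% held the ISRE core and 8.87% the GAS core. Of the 39 members 30 had a promoter there, and 20 of these (66.7%) held the ISRE core and 9 (30.0%) the GAS core. Of the 8 members with a promoter that were listed in a rat table, 5 held the ISRE core, among them Ifih1 (GAAACAGAAA at -59) and Tap1 (TTTCGGTTTC at -121, on the opposite strand). Irf5 and Ifi35 held neither core in this window, and Ifitm1 and Ifit2 had no promoter entry and were not searched. In GRCr8 the Tap2 and Tap1 genes are neighbours of the immunoproteasome genes Psmb8 and Psmb9 within the MHC region, and Ifitm2 and Ifitm1 are neighbours of each other. A match is a stretch of letters and was not tested as a binding site.

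The DEN comparison asked which members differed between livers with and before tumours. All 9 listed members had lower RPKM in the livers with tumours, and Ifi47, Stat2 and Irf3 passed the test there. Ifi47 was 2.27-fold lower by group means, Stat2 1.72-fold and Irf3 1.48-fold. The other 6, Irf9, Mx2, Bst2, Ifitm1, Ifi35 and Gbp4, were lower by between 1.41-fold for Irf9 and 2.11-fold for Ifitm1 without passing it. Fold changes are differences of log2(RPKM + 1) ± SE from limma, a scale that understates the change of low genes, and a gene was called at a Benjamini-Hochberg adjusted p under 0.05 counted over all annotated genes.

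Among the transcription factors, Stat2 is the STAT of the type I interferon complex, Irf9 is its DNA-binding partner, and Irf3 switches on interferon genes after viral sensing. Stat2 stood at 12.7, 10.6 and 9.24 RPKM before tumours and at 6.12, 5.46 and 7.37 with tumours. Irf3 stood at 34.5, 36.7 and 31.4 RPKM before tumours and at 23, 23.5 and 22.7 with tumours. Every library with tumours lay below every library before tumours for both genes, and the Irf3 values of the 3 tumour libraries were close together. Stat2 fell by 0.69 ± 0.16 on the log2 scale (adjusted p = 0.025) and Irf3 by 0.54 ± 0.13 (adjusted p = 0.026). Irf9 was at 14.6, 14.3 and 13.4 RPKM before tumours and at 8.5, 9.71 and 11.7 with tumours, a difference of -0.47 ± 0.14 (adjusted p = 0.077). Its groups did not overlap either, but it did not pass the threshold.

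Ifi47 is an interferon gamma-inducible GTPase of the immunity-related family, and Gbp4 a guanylate-binding protein. Ifi47 was at 35.3, 29.4 and 18.7 RPKM before tumours and at 9.84, 12.3 and 14.6 with tumours. The groups did not overlap, although the lowest library before tumours and the highest with tumours were near each other. Ifi47 fell by 1.09 ± 0.24 on the log2 scale (adjusted p = 0.022). Gbp4 was low in all 6 libraries, from 0.583 to 1.27 RPKM, and differed by -0.36 ± 0.12 (adjusted p = 0.11). GTPases of these families have close copies in the mouse genome, and how reads shared between copies were counted is not given, so single members are uncertain.

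Bst2, or tetherin, which holds budding virus at the cell surface, had the highest level per transcript length of the 9 listed members. It was at 329, 358 and 243 RPKM before tumours and at 189.7, 146 and 229 with tumours (-0.72 ± 0.22, adjusted p = 0.072). Ifitm1, a membrane protein that blocks virus entry, was at 12.5, 12.9 and 11 RPKM before tumours and at 3.6, 9.7 and 3.95 with tumours (-1.07 ± 0.30, adjusted p = 0.064). Library 2 with tumours stood apart from the other tumour libraries in Ifitm1, and without it the difference was -1.46 (adjusted p = 0.00028). Ifi35, an interferon-inducible leucine zipper protein, was at 22.3, 27.3 and 21.2 RPKM before and at 13.9, 14.2 and 18.7 with tumours (-0.57 ± 0.16, adjusted p = 0.059, and 0.044 without library 3 with tumours). Mx2 belongs to a family of antiviral dynamin-like GTPases but was not among the members annotated as protein-coding in mouse. Its level was between 1.32 and 1.55 RPKM before and between 0.829 and 0.965 with tumours (-0.36 ± 0.11, adjusted p = 0.071). None of these 4 overlapped between the groups, as held for nearly every gene listed for DEN, and none passed the threshold.

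**Figure D1:**
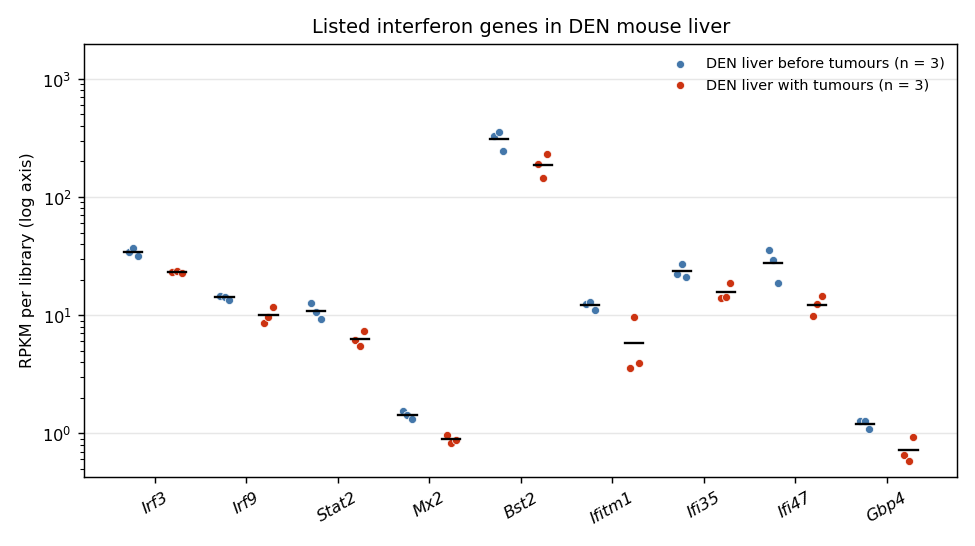
RPKM on a log axis of the 9 members listed in the DEN table, with 1 point per library (blue before tumours, red with tumours, n = 3 each) and a black bar at each group mean. For each of the 9 genes the 3 libraries with tumours lie below the 3 before tumours, and the group means differ most for Ifi47, by 2.27-fold.

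The 9 lower members are to be read against the table as a whole. Groups did not overlap, with lower values with tumours, in 71.4% of the 4649 listed genes, and with higher values in 28.6%. These shares cover nearly every listed gene, so non-overlap came with being listed and adds no support for any single member. Of 3684 tested genes 49.5% fell and 17.9% rose, and their median log2 fold change was -0.56, against -0.57 for the 9 members, so that the members' median lay at that of the table. When library medians were set equal, all 9 members kept a negative value and the 3 calls were lost, with Ifi47 at -0.72 (adjusted p = 0.11) and Stat2 at -0.34 (adjusted p = 0.49). Leaving out library 1 or 2 before tumours or library 1 with tumours ended all 3 calls, with adjusted p of up to 0.092 for Ifi47, 0.10 for Stat2 and 0.13 for Irf3. Stat2 also lost its call without library 2 with tumours (adjusted p = 0.053) and Irf3 without library 3 with tumours (adjusted p = 0.099).

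Other genes of the pathway went both ways. From a list of 146 further pathway genes, 22 were listed in the DEN table and 20 tested, of which 10 rose, 3 fell and 7 did not pass. Of all 3684 tested genes 17.9% rose and 49.5% fell. The lists differed, with a median log2 fold change of -0.49 over the 6 tested of the further interferon-inducible genes, of which 2 rose and 2 fell, and 0.61 over the 3 tested receptor genes. Ifngr1, the ligand-binding chain of the interferon gamma receptor, was at 9.47, 8.34 and 7.75 RPKM before tumours and at 24.6, 36.4 and 34.9 with tumours, and rose by 1.77 ± 0.17 (adjusted p = 0.00061). All 3 tested receptor genes rose, the others being Ifngr2 and Il10rb at 0.61 each on the log2 scale (adjusted p = 0.038 and 0.030). The cytosolic DNA sensor Aim2 rose by 1.18 ± 0.18 (adjusted p = 0.0043), and Plscr1, an interferon-inducible phospholipid scramblase, by 0.85 ± 0.19 (adjusted p = 0.020). Ifngr1 and Aim2 kept their calls without any 1 library, while the calls of Ifngr2, Il10rb and Plscr1 were each lost without library 1, 2 or 3 before tumours or library 3 with tumours, and those of Ifngr2 and Il10rb also without library 2 with tumours (adjusted p up to 0.17, 0.12 and 0.076). The adaptor of the RNA sensors, Mavs, was at 24.3, 16.6 and 21.2 RPKM before tumours and at 11.1, 10.9 and 12.9 with tumours, and fell by 0.77 ± 0.16 (adjusted p = 0.017). The paired interferon-inducible genes Dtx3l and Parp9, whose products work as a complex, fell by 0.77 and 0.75 (adjusted p = 0.027 and 0.043). Setting library medians equal moved the median log2 fold change of all tested genes from -0.56 to -0.23. With that scaling 13 of the 20 rose, with Mavs at -0.39, Dtx3l at -0.43 and Parp9 at -0.40 not past the threshold. These 3 calls were also lost without library 1 or 3 before tumours, those of Dtx3l and Parp9 without library 1 with tumours, and that of Parp9 without library 2 before or library 3 with tumours (adjusted p up to 0.072, 0.086 and 0.16).

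MHC class II genes, which present peptides on antigen-presenting cells, rose in 3 of 4 tested cases, against 17.9% of all 3684 tested genes. H2-Eb1, a class II beta chain, was at 28.1, 25.7 and 21.9 RPKM before tumours and at 47.4, 38.8 and 48.7 with tumours (0.81 ± 0.16, adjusted p = 0.012). Cd74, the invariant chain that escorts class II molecules, rose by 0.80 ± 0.19 (adjusted p = 0.026) and H2-Ab1 by 0.76 ± 0.18 (adjusted p = 0.026), and H2-Aa had 0.72 ± 0.22 (adjusted p = 0.081). All 4 rose when library medians were set equal. That scaling raised the median of all tested genes from -0.56 to -0.23, so it is no independent support for genes already higher. The calls of Cd74 and H2-Ab1 were lost without library 2 or 3 before tumours or library 1 or 3 with tumours (adjusted p up to 0.11 and 0.10), and that of H2-Eb1 without library 2 before tumours (adjusted p = 0.050). These samples are whole tissue, where fewer cells of a type and less RNA per cell cannot be told apart. Of 14 macrophage and Kupffer cell markers 7 were listed, and their summed level was 127 to 152 RPKM before and 153 to 186 with tumours. With tumours this sum was mostly Lyz2 and Mpeg1, which were higher than before, as was Cd68. The other listed markers were lower on average, Clec4f among them. Vsig4 went from 16.8 to 5.98 RPKM, Timd4 from 2.11 to 0.629, and Cd163 from 1.22 to 0.381. The Kupffer cell lectin Clec4f was at 30.2, 31.9 and 39.7 RPKM before tumours and at 2.82, 14.2 and 10.9 with tumours, whereas the myeloid lysozyme gene Lyz2 rose by 0.83 (adjusted p = 0.021). Of the 6 tested of these markers 2 rose and 2 fell. The dendritic cell list had 1 listed gene of 7, Itgax, which rose from 0.618 to 1.75 RPKM on average (adjusted p = 0.0081). The T and NK cell list had 1 listed gene, Cd8b1, at 0.423 and 1.37 RPKM on average before and with tumours, too low to be tested. Of the endothelial markers 5 of 8 were listed, with a sum of 21.0 to 28.3 RPKM before and 26.1 to 43.1 with tumours, and 3 rose and 1 fell. The 1 listed stellate cell and fibroblast marker of 7, Acta2, rose from 4.0 to 15.3 RPKM on average (adjusted p = 0.0035), and the neutrophil gene S100a8 was at 2.1 and 3.84 RPKM (adjusted p = 0.066). Of 9 hepatocyte markers 5 were listed and went both ways, as Alb and Apoa1 rose (1.76 and 1.32 on the log2 scale), Apoa2 and Cyp2e1 fell (-1.11 and -4.05), and Cps1 had -1.24 without passing. Their sum, mostly Alb and Apoa1, was 57256 to 70859.9 RPKM before and 131059 to 142464 with tumours. None of these marker lists summed to 0 in any library. Their part in the members' values was not tested.

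The Morris hepatoma comparison asked which members differed between the transplanted tumour and control liver. All 8 listed members rose in the hepatoma. Ifitm2 rose most, to 29.1 times the control mean, and the other 7 were between 2.21 times (Ifih1) and 3.46 times (Isg20) it. Every hepatoma library lay above every control library for all 8. This is to be read against a table in which groups did not overlap, with higher values in hepatoma, in 86.9% of listed genes and with lower ones in 11.4%, and in which 85.5% of 8233 tested genes rose and 8.73% fell.

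Ifitm2, like Ifitm1, encodes a small membrane protein that restricts virus entry. Ifitm2 was at 15.5, 15.6 and 22.7 RPKM in control liver and at 582, 699, 378 and 430.1 RPKM in hepatoma libraries 1 to 4. The change was 4.77 ± 0.26 on the log2 scale (adjusted p = 8.6e-07). The lowest hepatoma value lay far above the highest control value.

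Ifitm1 was at 87.0, 105 and 134 RPKM in control liver and at 187, 321, 404 and 300.3 in hepatoma (1.44 ± 0.29, adjusted p = 0.0023). Hepatoma library 1 was the lowest of its group, though still above the control libraries. The Ifitm genes are close copies of each other that lie side by side, so values of single members are uncertain where reads were shared.

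Irf1 and Irf5 are interferon regulatory factors, the first a main mediator of interferon gamma responses and the second of cytokine induction in myeloid cells. Irf1 was at 6.63, 7.24 and 4.71 RPKM in control liver and at 15.1, 30.8, 15.7 and 16.7 in hepatoma (1.47 ± 0.26, adjusted p = 0.0011). Irf5 was at 3.11, 3.28 and 2.32 RPKM in control liver and at 4.48, 12.0, 9.56 and 7.52 in hepatoma (1.20 ± 0.28, adjusted p = 0.0056). Hepatoma library 2 was the highest for both genes and stood well above the other hepatoma libraries for Irf1. Ifih1, the gene of the RNA sensor MDA5, was at 2.53, 2.96 and 2.36 RPKM in control liver and at 4.24, 8.71, 5.22 and 4.92 in hepatoma (0.87 ± 0.22, adjusted p = 0.010). Library 2 was again the highest.

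Isg20 encodes an exonuclease that degrades viral RNA. It was at 2.07, 2.41 and 4.69 RPKM in control liver and at 8.29, 15.3, 9.24 and 9.42 in hepatoma (1.53 ± 0.27, adjusted p = 0.00095). Control library 3 lay above the other controls but below every hepatoma library.

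Tap1 and Tap2 form the transporter that carries cytosolic peptides into the endoplasmic reticulum for loading onto MHC class I. Tap1 was at 12.5, 11.1 and 6.49 RPKM in control liver and at 19.6, 31.2, 19.6 and 21.4 in hepatoma (1.14 ± 0.25, adjusted p = 0.0045). Tap2 was at 7.65, 8.59 and 5.54 RPKM in control liver and at 22.2, 24.1, 19.8 and 22.4 in hepatoma (1.50 ± 0.18, adjusted p = 7e-05). Both subunit genes were higher in each hepatoma library, and the hepatoma values of Tap2 were closer together than those of Tap1.

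**Figure D2:**
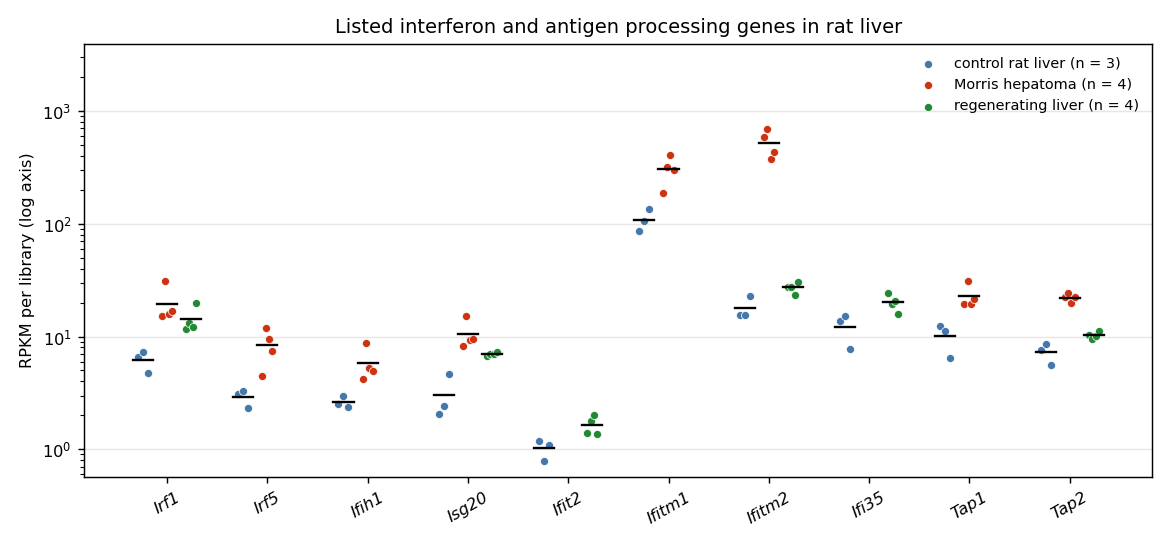
RPKM on a log axis of members listed in a rat table, with 1 point per library and a black bar at each group mean, for control liver (blue, n = 3), Morris hepatoma (red, n = 4) and regenerating liver (green, n = 4) where listed. Ifitm2 in hepatoma, from 378 to 699 RPKM, is far above control and regenerating liver, whereas hepatoma and regenerating libraries of Irf1 overlap.

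The 8 members rose less than the typical gene of their table apart from Ifitm2. Their median log2 fold change was 1.46 and that of all tested genes 1.58. When library medians were set equal, which on genes selected as higher evens the directions out by construction, Ifitm2 was called higher (2.84, adjusted p = 9e-05) and Ifih1 lower (-0.70, adjusted p = 0.033), and the other 6 turned to between -0.71 for Tap1 and -0.12 for Isg20 without passing. The direction of every member except Ifitm2 in this comparison therefore depends on the scaling. All 8 calls held without any 1 library.

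Of the 146 pathway genes, 38 were tested for Morris hepatoma, of which 31 rose, 3 fell and 4 did not pass, and with library medians set equal 8 rose and 16 fell. Of all 8233 tested genes 85.5% rose and 8.73% fell, so these counts lie near those of the table. All 7 tested genes of the list of kinases, STATs and brakes rose, none of them a STAT gene, and 2 rose with library medians set equal. The receptor-associated kinase Jak2 was at 1.4, 1.77 and 1.78 RPKM in control liver and 19.2, 14.1, 16.9 and 15.8 in hepatoma (2.72 ± 0.16, adjusted p = 1.2e-06, and 1.14 with medians set equal). Plscr1 was at 0.642, 0.553 and 1.44 RPKM in control liver and between 29.0 and 32.1 in hepatoma (4.11 ± 0.19, adjusted p = 4.6e-07, and 2.68 with medians set equal). Both genes were called higher under either scaling. Socs3, a feedback inhibitor of cytokine signalling, was at 0.79, 0.637 and 9.42 RPKM in control liver and between 22.1 and 57.9 in hepatoma (3.74 ± 0.75, adjusted p = 0.0086), and with medians set equal it had 2.18 (adjusted p = 0.20). Control library 3 stood apart in Socs3. It also did in the hepatocyte markers Cyp2e1 (451 RPKM against 3045 and 3687) and Apoa2 (570.4 against 5348 and 5646), but not in Tat (474 against 492 and 486). Among the controls it was the lowest in Irf1, Irf5, Ifih1, Tap1 and Tap2 and the highest in Isg20, Ifitm1 and Ifitm2. RT1-DMa and RT1-DMb, the chains of the class II peptide-loading factor, rose by 3.42 ± 0.35 and 2.95 ± 0.37 (adjusted p = 4e-05 and 0.00016), and with medians set equal by 1.64 (adjusted p = 0.013) and to 1.08 without passing (adjusted p = 0.11). Of the 7 tested class I presentation genes 5 rose and 1 fell, whereas with medians set equal 0 rose and 5 fell. Of the 38 tested pathway genes, those that fell were the class I gene RT1-S3 (-2.52, adjusted p = 0.021), the signalling adaptor Trim14 (-2.24, adjusted p = 0.032) and the chemokine Cxcl11 (-1.93, adjusted p = 0.033, with overlapping groups). The calls of RT1-S3, Trim14 and Cxcl11 were lost without control library 1 or 2, that of Trim14 also without control library 3 or hepatoma library 2, and that of Cxcl11 without hepatoma library 1, 3 or 4 (adjusted p up to 0.097, 0.13 and 0.14).

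Cell type markers differed between hepatoma and control liver. Of 14 macrophage and Kupffer cell markers 6 were listed, with a sum of 199 to 241 RPKM in control liver and 749.9 to 1372 in hepatoma, a sum that is mostly Lyz2 in hepatoma, with the highest value of 1232 RPKM in library 2. Lyz2, Cd68 and Cd163 rose (5.07, 1.67 and 1.0 on the log2 scale), Clec4f and Mpeg1 fell (-2.54 and -1.5), and Cd5l had -3.02 without passing, so that the median of the list was -0.25. Of 13 T and NK cell markers 3 were listed, with a sum of 1.74 to 4.13 RPKM in control liver and 3.37 to 11 in hepatoma. The T cell gene Cd3g was at 0.0478, no reads and 0.168 RPKM in control libraries 1 to 3 and at 1.81, 6.26, 1.83 and 3.15 in hepatoma libraries 1 to 4. Cd2 also rose (1.27 on the log2 scale, adjusted p = 0.0016), whereas the granzyme gene Gzma fell from 2.85 to 0.566 RPKM on average (-1.26, adjusted p = 0.0036). The dendritic cell list (2 of 7 listed) summed to between 0.429 and 0.626 RPKM in control liver and between 3.5 and 7.17 in hepatoma. Endothelial markers (4 of 8 listed) summed to between 9.27 and 16.7 RPKM in control liver and between 57.0 and 88.7 in hepatoma, and stellate cell and fibroblast markers (5 of 7 listed) to between 19.1 and 57.1 and between 404 and 1068. Hepatocyte markers (8 of 9 listed) summed to between 61557 and 100879 RPKM in control liver and between 32.2 and 15519 in hepatoma, with albumin (Alb) at 574, 19.0, 10943 and 10924 in hepatoma libraries 1 to 4. Library 2, the lowest in Alb, was the highest in Irf1, Irf5, Ifih1, Isg20, Tap1, Tap2 and Ifitm2. The part of these cell types in the members' values was not tested.

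The regenerating comparison asked which members differed 24 hours after partial hepatectomy. All 6 listed members were higher in every regenerating library than in every control library, as were 87.4% of all listed genes in that table, while 5.4% were lower in every regenerating library. Irf1 and Isg20 rose, to 2.30 and 2.28 times the control mean. Ifi35, Ifitm2, Tap2 and Ifit2 were at 1.42 to 1.65 times the control mean and did not pass the threshold. Of 1703 tested genes 21.2% rose and 0.763% fell.

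Irf1 was at 6.63, 7.24 and 4.71 RPKM in the shared control libraries and at 11.7, 13.3, 12.2 and 19.8 in regenerating liver (1.07 ± 0.19, adjusted p = 0.031). Isg20 was at 2.07, 2.41 and 4.69 RPKM in control liver and at 6.69, 6.96, 6.95 and 7.31 in regenerating liver (1.03 ± 0.19, adjusted p = 0.033). The Isg20 values of the 4 regenerating libraries were close together, and regenerating library 4 was the highest for both genes. Ifi35 was at 13.6, 15.2 and 7.69 RPKM in control liver and at 24.2, 19.6, 20.5 and 15.9 in regenerating liver (0.71 ± 0.22, adjusted p = 0.19). Ifit2, an antiviral protein with tetratricopeptide repeats that binds RNA, was low, between 0.792 and 1.19 RPKM in control liver and between 1.36 and 2.0 in regenerating liver (0.38 ± 0.14, adjusted p = 0.31). Neither of these genes overlapped between the groups.

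Ifitm2, which reached 699 RPKM in hepatoma, was at 27.5, 27.7, 23.2 and 30.6 RPKM in regenerating liver, close above control library 3 at 22.7 (0.59 ± 0.16, adjusted p = 0.12, and 0.025 without control library 3). Tap2 was at 10.4, 9.46, 10.1 and 11.3 RPKM in regenerating liver, against 7.65, 8.59 and 5.54 in control liver (0.47 ± 0.15, adjusted p = 0.19). The listed members' median log2 fold change was 0.65 and that of all tested genes 0.53. With library medians set equal both calls were lost, Irf1 and Isg20 kept positive values of 0.33 and 0.37, and the other 4 lay between -0.27 for Tap2 and -0.06 for Ifi35. Leaving out control library 1 or 2 or regenerating library 1 or 2 ended both calls (adjusted p up to 0.12 for Irf1 and 0.14 for Isg20). Irf1 also lost its call without control library 3 (0.067, adjusted p), and Isg20 without regenerating library 3 or 4 (adjusted p = 0.062 and 0.076).

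**Figure D3:**
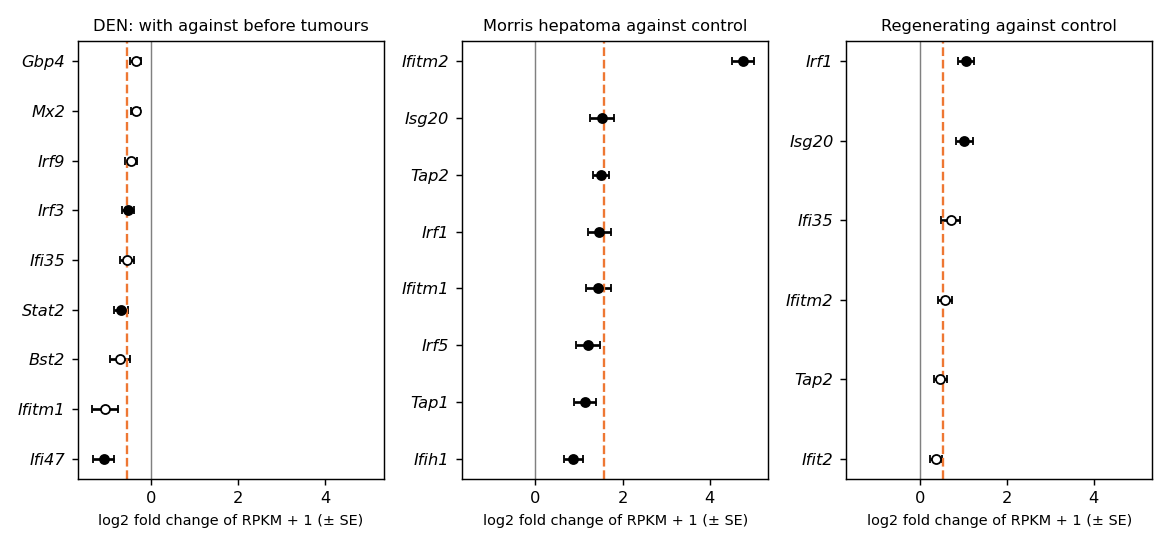
Log2 fold changes of RPKM + 1 (± SE) of each listed member against control liver in rats and against livers before tumours in the DEN model. Points are filled for genes at an adjusted p under 0.05, with a grey line at 0 and a dashed line at the median of all tested genes. The DEN values are all below 0 and the rat values against control all above 0, and Ifitm2 at 4.77 in hepatoma lies farthest from its table's median of 1.58.

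Of the 146 pathway genes, 25 were tested in regenerating liver, of which 3 rose and 22 did not pass. Of all 1703 tested genes 21.2% rose and 0.763% fell. With library medians set equal the 3 calls were lost and 4 pathway genes fell. The pathway genes that rose with RPKM as deposited were Psmb10, Psmb9 and Lgals3bp. Psmb10 and Psmb9 are immunoproteasome subunits, which cut peptides for MHC class I, and Lgals3bp is a secreted glycoprotein. Psmb10 was at 18.1, 21.0 and 11.3 RPKM in control liver and at 59.1, 47.2, 34.8 and 36.3 in regenerating liver (1.36 ± 0.24, adjusted p = 0.029). Psmb9 was at 29.0, 36.6 and 17.9 RPKM in control liver and at 64.7, 55.1, 66.8 and 52.8 in regenerating liver (1.13 ± 0.22, adjusted p = 0.040). Groups did not overlap for either, and Lgals3bp rose by 0.94 ± 0.19 (adjusted p = 0.043). These calls were lost with library medians set equal, and each without control library 1 or regenerating library 1 or 2. Psmb10 also lost its call without control library 2, Psmb9 without regenerating library 3 or 4, and Lgals3bp without any 1 library (adjusted p up to 0.11 for Psmb10, 0.13 for Psmb9 and 0.18 for Lgals3bp).

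Class II genes did not pass the adjusted threshold of limma in regenerating liver, and 5 of the 6 tested had negative values. All 6 had an unadjusted p under 0.05, which restates how the table was selected and is no support. Cd74 was at 236, 170.3 and 172 RPKM in control liver and at 127, 90.9, 127 and 51.8 in regenerating liver (-1.02 ± 0.30, adjusted p = 0.19). RT1-Db1, a class II beta chain, had -1.16 ± 0.28 (adjusted p = 0.085), and RT1-DMa was the exception at 0.56 ± 0.16 (adjusted p = 0.16). When library medians were set equal, 3 of the 6 fell. That scaling lowered the median of all tested genes from 0.53 to -0.15, so it is no independent support for genes already lower. No marker of macrophages and Kupffer cells, dendritic cells, neutrophils or hepatocytes was listed in this table. Of 13 T and NK cell markers 1 was listed, at 0.455 to 0.884 RPKM in control liver and 0.138 to 0.262 in regenerating liver. Endothelial markers (2 of 8 listed) summed to 3.14 to 4.78 and 8.46 to 15.2 RPKM, and stellate cell markers (3 of 7 listed) to 17.4 to 46.3 and 55.1 to 73.6 RPKM in control and regenerating liver. Their part in the members' values was not tested.

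**Figure D4:**
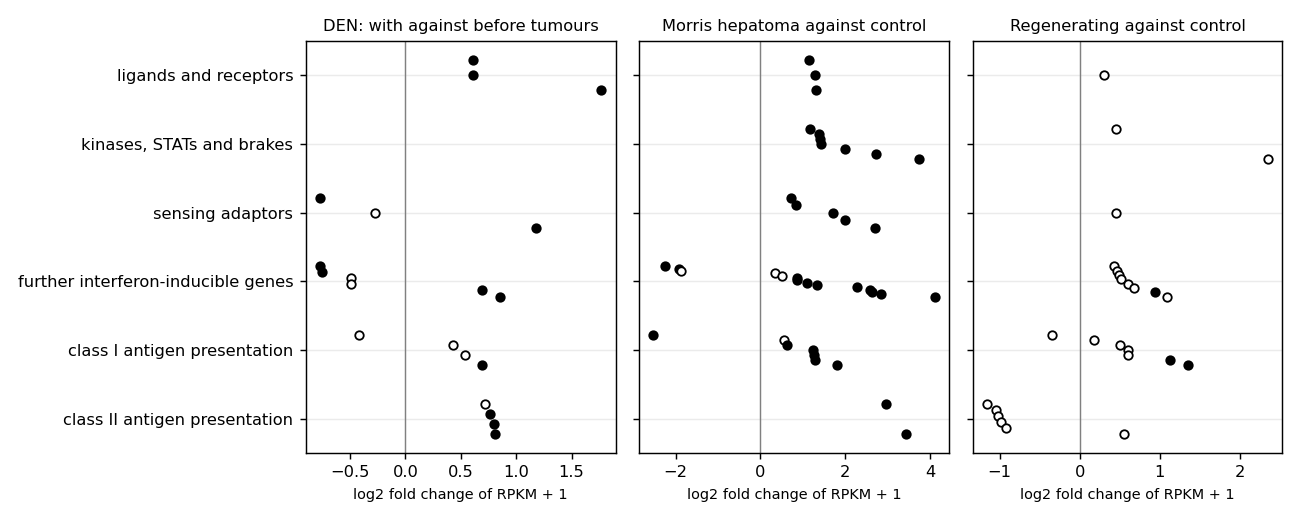
Log2 fold changes of RPKM + 1 of the tested pathway genes, 1 point per gene, in rows by list and in 1 panel per comparison with its own axis range, filled at an adjusted p under 0.05 and open otherwise. In the DEN model 10 of 20 rose and 3 fell, in Morris hepatoma 31 of 38 rose and 3 fell, and in regenerating liver 3 of 25 rose. Of all tested genes 17.9% rose and 49.5% fell in the DEN model. These shares were 85.5% and 8.73% in Morris hepatoma, and 21.2% and 0.763% in regenerating liver.

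Hepatoma and regenerating liver were compared directly for the 4 members listed in both rat tables, among 1673 tested genes of which 80.8% rose and 4.0% fell in hepatoma. Ifitm2 was 19.2 times and Tap2 2.14 times as high in hepatoma as in regenerating liver, and both passed. Irf1 and Isg20 did not. Ifitm2 differed by 4.18 ± 0.20 on the log2 scale (adjusted p = 3.2e-09) and Tap2 by 1.03 ± 0.14 (adjusted p = 6.5e-05), with no overlap between the groups, as for 83.4% of genes listed in both tables.

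Isg20 was at 8.29 to 15.3 RPKM in hepatoma and 6.69 to 7.31 in regenerating liver, a difference of 0.50 ± 0.18 (adjusted p = 0.20). Irf1 was at 15.1 to 30.8 RPKM in hepatoma and 11.7 to 19.8 in regenerating liver, a difference of 0.40 ± 0.23 (adjusted p = 1.0). The Irf1 ranges overlapped and those of Isg20 did not. In order of level, regenerating liver lay between control liver and hepatoma by group mean for all 4 genes. All 4 were listed as higher than control in both rat comparisons, so control as the lowest was fixed by selection. Hepatoma lay above regenerating liver, without overlap, for 83.4% of genes listed in both. With library medians set equal Ifitm2 stayed higher in hepatoma (2.49, adjusted p = 1.9e-06), and the other 3 were called lower in hepatoma, Irf1 at -1.21 (adjusted p = 0.0016), Isg20 at -1.03 (adjusted p = 0.00076) and Tap2 at -0.58 (adjusted p = 0.0033). The median of all tested genes was 1.47 before and 0.01 after that scaling.

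**Figure D5:**
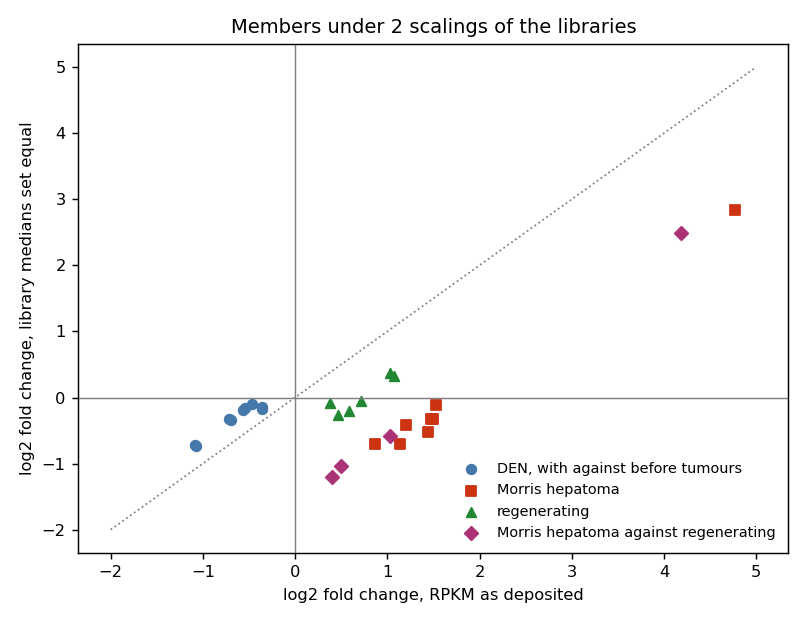
Log2 fold changes of RPKM + 1 of each listed member with RPKM as deposited (x axis) and with library medians set equal (y axis), 1 point per member and comparison, with a dotted line where both are equal. Ifitm2 in hepatoma stays above 0, at 4.77 and 2.84 against control, whereas the other hepatoma values drop below 0 and the DEN values stay below 0.

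Of the pathway genes 10 were tested in the direct comparison, of which 7 rose in hepatoma, 1 fell and 2 did not pass. Of all 1673 tested genes 80.8% rose and 4.0% fell. With library medians set equal 2 of the 10 rose and 4 fell. RT1-DMa was at 29.9, 74.8, 41.5 and 78.6 RPKM in hepatoma and at 7.46, 5.8, 6.55 and 5.5 in regenerating liver (2.86 ± 0.29, adjusted p = 3.5e-05). Sp100, an interferon-inducible nuclear body protein, was at 13.4, 18.2, 11.9 and 12.3 RPKM in hepatoma and between 1.7 and 2.68 in regenerating liver (2.16 ± 0.17, adjusted p = 3.2e-07). Both were higher in hepatoma under either scaling, at 1.26 and 0.73 with medians set equal. Trim14 was at 0.316, 0.523, 4.82 and 3.9 RPKM in hepatoma and at 15.7, 16.0, 17.7 and 19.9 in regenerating liver (-2.73 ± 0.53, adjusted p = 0.025, and up to 0.11 without any 1 regenerating library). Hepatoma libraries 1 and 2, which were the lowest in Alb, were also the lowest in Trim14. Socs3 differed by 1.38 ± 0.34 (adjusted p = 0.045) with overlapping groups, and the call was lost without hepatoma library 2, 3 or 4 or regenerating library 2, 3 or 4 (adjusted p up to 0.22).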

How the data were processed

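Processed tables of 17 liver libraries were used, 6 from mice and 11 from rats. The authors deposited values per library that were read as RPKM, since the headers name no unit. A value of 0.001 stands for no reads. The deposited tables also hold group means, the log2 ratio of the group means, and a p-value that the file headers call Holm-corrected, which was under 0.05 for every listed gene. The aligner, genome build, annotation and read counting are not given in the sources used here. No batch is named. Absolute depth was not derived, so no counting intervals are given. Low values of a gene move in whole steps per library, and these steps gave relative depth.

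Two-sided tests were made with limma 3.58.1 (R 4.3.3), with its trend and robust options, after adding a pseudocount of 1 to RPKM and taking log2. The filter kept genes that reached 1 RPKM in a number of libraries equal to the smaller group. Benjamini-Hochberg adjustment ran over all annotated protein-coding genes, 21951 for mouse from GENCODE M21 and 23154 for rat from RefSeq on GRCr8, because the tables hold only genes preselected by p-value. Adjusted p-values may still be too small after this preselection. The direct rat comparison used genes listed in both rat tables, where control values were identical. Python 3.11.15 with pandas 2.3.3, numpy 2.4.6 and matplotlib 3.10.9 did the other work. Alternatives were a pseudocount of 0.1, no filter or a filter at 5 RPKM, library medians set equal, adjustment over the tested genes of each table, a replicate block, plain limma, all 3 rat groups in 1 fit, and leaving out each library.

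The members and the pathway and marker lists were chosen with earlier results of these data known. Members with values per library were up to 4 called genes per role and comparison with the largest fold changes, with the others added for completeness, and pathway genes up to 4 called genes per comparison. Other named pathway and marker genes were chosen after their values were seen.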

Additional observations from a re-analysis of the deposited data

Results flagged for a closer look

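In hepatoma library 2, Irf1 (30.8 RPKM), Tap1 (31.2) and Isg20 (15.3) stood apart from the other 3 hepatoma libraries. The gap to the nearest library was 0.898, 0.845 and 0.839 of the group's range, above Dixon's limit of 0.829 for 4 samples. Of 14 groups of 4 member values examined these 3 were flagged, and chance flags about 1 in 20 groups. The same library was the highest of the hepatoma libraries in Cd3g (6.26 RPKM), Cd2 (3.79), Lyz2 (1232) and Lgals3bp (117) and the lowest in Alb (19.0). It was also the highest in the endothelial markers Pecam1 (27.6) and Cdh5 (42.9). The same held for the fibroblast markers Col1a1 (351), Col1a2 (213) and Col3a1 (389.9). The other listed markers of these 2 lists, Tek, Tie1, Acta2 and Des, were highest in library 3. Apart from Lyz2, no listed macrophage and Kupffer cell marker was highest in library 2 (Cd68 101 RPKM, Cd163 14.4, Mpeg1 18.3). Clec4f (6.02) and Cd5l (0.412) were at their lowest hepatoma value there. The part of these in the member values was not tested. Without library 2 all 8 hepatoma calls were kept.

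Ifitm1 was the member listed in a mouse and a rat tumour table, with opposite signs. It was at -1.07 in DEN livers with tumours (not past the threshold) and at 1.44 in Morris hepatoma. Groups without overlap in both comparisons were part of the rule that flagged it, and add no support. Of genes listed for DEN, 28.6% were higher and 71.4% lower without overlap, and of those listed for Morris hepatoma 86.9% and 11.4%. The difference between the models was not tested. With library medians set equal the hepatoma value was -0.52.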

How the results depend on the processing

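Without the scaling of library medians, every member kept its direction in all alternatives that gave a value. With library medians set equal, the number of called members went from 3 to 0 in DEN, from 8 to 2 in Morris hepatoma and from 2 to 0 in regenerating liver, and from 2 to 4 in the direct comparison, where 3 of the 4 were lower in hepatoma. All called genes then numbered 1619 in DEN (902 higher, 717 lower) and 106 in regenerating liver (37 higher, 69 lower), and 2417 were higher and 2345 lower in Morris hepatoma. Values that turned negative against control were, in hepatoma, Ifih1 -0.70, Ifitm1 -0.52, Irf1 -0.32, Irf5 -0.42, Isg20 -0.12, Tap1 -0.71 and Tap2 -0.32, and in regenerating liver Ifi35 -0.06, Ifit2 -0.08, Ifitm2 -0.20 and Tap2 -0.27. In the direct comparison Irf1 turned to -1.21, Isg20 to -1.03 and Tap2 to -0.58. The scaling rests on preselected genes and evens directions by construction.

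Adjusting over the tested genes of each table alone, which ignores the preselection, called 9 members in DEN and 6 in regenerating liver. The filter at 5 RPKM left 1 called member in regenerating liver. With all 3 rat groups in 1 fit, which holds only genes listed in both rat tables, 4 members were called in Morris hepatoma and 1 in regenerating liver. Leaving out each library gave 0 to 3 called members in DEN, 8 to 8 in Morris hepatoma, 0 to 2 in regenerating liver and 2 to 2 in the direct comparison. Over all genes it gave 1347 to 2593 calls in DEN against 2481, and 21 to 353 in regenerating liver against 374.

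Replicate numbers were not treated as pairs. Correlations of same-numbered deviations ran from -0.32 to 0.15, and those of differently numbered ones from -0.23 to 0.32. With so few libraries per group, these values cannot tell whether libraries were paired or shared a batch. A replicate block called 2 members in DEN, Ifi47 (adjusted p = 0.047) and Ifitm1 (0.026), while Stat2 (0.053) and Irf3 (0.086) lost their calls, and it called 0 in regenerating liver, and 25 genes in all in regenerating liver. Depth is known only in relative terms, so the reads behind members at about 1 RPKM (Mx2, Gbp4, Ifit2) are not known.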
